A study of Mus musculus with 6 samples.

Results

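Interferon-stimulated genes are the genes that cells switch on when interferon binds its receptors, and 41 of them were followed here in the nucleus accumbens, a reward region of the ventral striatum. The genes were taken by symbol from a fixed list, without the class I antigen presentation genes and the chemokines, and all 41 were found once among the 54658 genes of each count table. The study measured RNA in 6 libraries. In 3 samples a herpes simplex virus p1005+ vector had delivered Gas5, a long noncoding RNA, with EGFP, and in 3 control samples, called GFP here, the same kind of vector had delivered EGFP by itself. All 6 samples came from male C57BL6 mice, bought at 8 weeks of age and kept on a reversed light cycle, and all were made from ribosomal RNA-depleted total RNA. Every sample therefore carried the viral vector and EGFP, and no uninjected or saline-injected tissue was analysed here. The labels give neither the promoter of the vector nor the number of animals behind a sample, so every p-value refers to the spread among these samples, which may be technical. Libraries are named by group and by the letters A, B and C of the labels.

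Type I interferons bind a receptor that activates the Jak kinases, which phosphorylate Stat2. A complex that holds Stat2 and Irf9 enters the nucleus and switches on genes carrying an interferon-stimulated response element, whereas interferon gamma acts through a different element. The induced proteins sense viral RNA and DNA, block viral entry, translation and budding, and feed back on the pathway. In brain, microglia, border macrophages, endothelial cells, astrocytes and neurons can all express them.

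The libraries held 41195696, 42524874 and 38605056 counts in Gas5 A, B and C, against 56081575, 39766777 and 32359052 in GFP A, B and C. The delivered gene, Gas5, was at 22.6, 23.3 and 23.6 CPM (counts scaled to library size) in the Gas5 libraries, against 18.6, 16.5 and 18.3 CPM in the GFP libraries. This is a log2 fold change of 0.38 (SE 0.06) with an adjusted p of 0.0163 in edgeR's quasi-likelihood test with Benjamini-Hochberg adjustment. The exact permutation test over libraries gave p = 0.1, 2-sided, the smallest that 3 against 3 allows. Gas5 was no longer called when GFP B was left out (0.33, edgeR adjusted p = 0.0727) or GFP C (0.40, adjusted p = 0.0677). Of the Gas5 span, 26.6% is shared with 10 other genes, and reads in such overlaps are not in these counts. Markers of medium spiny neurons, the main neurons of the accumbens, were present in every library, and 0 of 10 of them passed the test. Markers of cortical excitatory neurons differed between the groups: 7 of 10 were called lower in Gas5 by the same edgeR test, compared with 3.96% of all tested genes. The log2 fold change was negative for 9 of the 10, and its median was -2.45. Their summed level lay between 189 and 246 CPM in Gas5 libraries, against 407 to 544 CPM in GFP libraries.

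The interferon-stimulated genes averaged a higher level in the Gas5 libraries, but none of them passed the test, and 1 library of each group stood apart from the rest. Of the 41 genes, 40 were tested. The remaining gene, Igtp, an interferon-inducible GTPase, had 0, 1 and 0 counts in the Gas5 libraries and 0 in every GFP library. Of its annotated span, 99.2% lies inside that of Irgm2, and reads in such overlaps are not in these counts. All 40 tested genes were above 0 in every library, the lowest being Irgm1 at 2.72 CPM in GFP B. The log2 fold change was positive for all 40, the median being 0.46 and the range 0.01 for Ifi27 to 1.01 for Gbp2, whereas 54.2% of the 17563 tested genes were positive, with a median of 0.02. In edgeR's quasi-likelihood test, 0 of 40 were called at an adjusted p under 0.05, where 5.44% of all tested genes were called, 1.48% higher and 3.96% lower. The smallest adjusted p was 0.0904, for Ifitm3. At an unadjusted p under 0.05 there were 13 genes, all with a higher mean in Gas5, where 10.2% of all tested genes lay on that side. Among other tools, DESeq2 called 1 gene higher (Lgals3bp; 2.93% of the genes it tested), the edgeR exact test called 3 (Ifitm3, Irf7 and Oasl2; 3.91%) and limma-voom called 0 (1.23%). With no expression filter edgeR called 7 (2.29% of the 28611 genes with a count in any library). At a threshold of 0.1 it called Ifitm3 by itself (3.76% of the 17563 tested genes). With the letter of the library as a block, edgeR's quasi-likelihood test called 15 higher (510 of all 17563 tested genes). The labels do not say whether the letters pair the samples, so the result of no call depends on leaving them out.

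The highest and the lowest library were nearly always the same. Gas5 A was the highest library in 40 of 40 genes, against 24.8% of all tested genes, and GFP B was the lowest in 39 of 40, against 18.0%. The exception was Ifi27, lowest in GFP C. Both held together in 39 of 40 genes, compared with 8.32% of all tested genes. The summed level of the 40 genes was 1870, 1298 and 1418 CPM in Gas5 A, B and C, against 1317, 724 and 1294 CPM in GFP A, B and C. The Gas5 libraries averaged 1529 ± 301 CPM and the GFP libraries 1112 ± 336 CPM (SD, n = 3 each), so the groups overlapped: GFP A lay above Gas5 B. Together the 41 genes held 0.196%, 0.131% and 0.142% of the counts in the Gas5 libraries, against 0.130%, 0.0702% and 0.127% in the GFP libraries.

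Ratios of single libraries show where the difference lay. The median gene was 2.60 times higher in Gas5 A than in GFP B, and 1.43 times higher in Gas5 A than in GFP A or in GFP C. Gas5 B and C were 1.85 and 2.01 times above GFP B. Set against GFP A, however, the median ratio was 0.971 for Gas5 B and 1.07 for Gas5 C. Set against GFP C, it was 1.01 for Gas5 B and 1.10 for Gas5 C. Libraries of the same group also stood apart, with medians of 1.49 for Gas5 A over Gas5 B and 1.86 for GFP A over GFP B. The distance between the highest and the lowest library of a group had a median of 0.57 log2 units in Gas5 and 0.94 in GFP for these genes, against 0.20 and 0.16 for all tested genes, on a scale of log2(CPM + 0.5). In 39 of 40 genes the GFP libraries spread over more than the difference between the group means, as they did in 11580 of all 17563 tested genes. The exception was Ifitm3. Because the RNA came from bulk tissue, fewer cells of a type and less RNA per cell cannot be told apart in any of these levels.

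**Figure D1:**
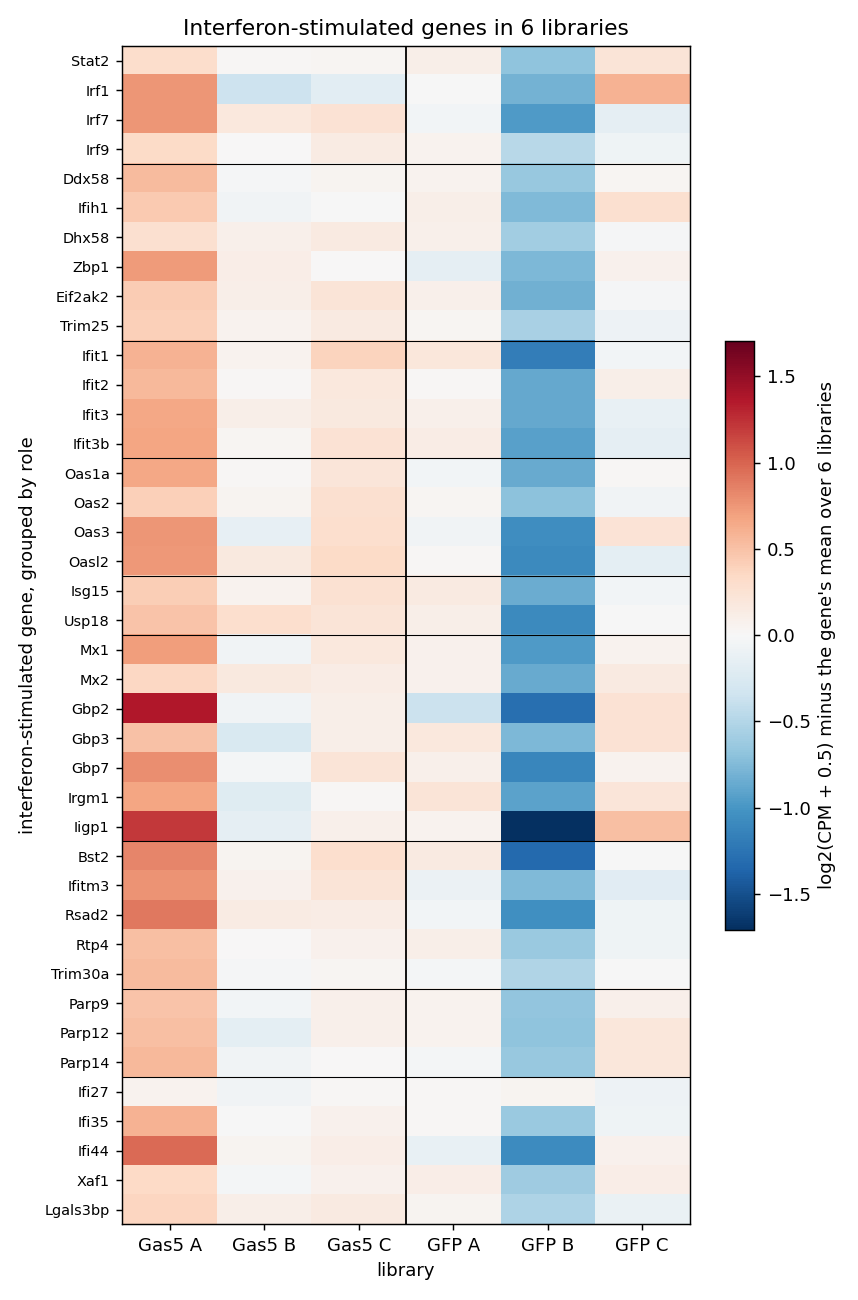
Level of the 40 tested interferon-stimulated genes in each library, as log2(CPM + 0.5) minus the gene's mean over the 6 libraries, with rows grouped by role and Gas5 libraries left of the vertical line. Gas5 A is the highest library in all 40 rows and GFP B the lowest in 39, with Gas5 B, Gas5 C, GFP A and GFP C between them in those 39.

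Many genes answering to the complex of Stat2 and Irf9 carry the response element near their start. The promoters of genes from several roles are printed as examples, picked so that all but Irf1 hold its core. Sequences came from RefSeq on GRCm38.p6, whose table of windows from 250 bases before to 50 bases after a start held 30 of the 41 genes. Searched on both strands, the response element core GAAANNGAAA occurred in 19 of the 30 genes (63.3%), against 3.99% of the 27025 genes of the table, and in 3.44% of all 32851 windows. The interferon gamma element TTCNNNGAA occurred in 9 of 30 genes (30.0%), against 9.55% of the genes of the table, and in 8.30% of all windows. These counts include the 50 bases after the start, and in Ddx58, Eif2ak2, Ifih1 and Ifitm3 every match to the core lay there. Matches of a motif can overlap each other. Capitals below mark matches to either motif, each sequence running 5′ to 3′ on the strand of its gene, and the reverse complement of the core reads TTTCNNTTTC. The stretch of Isg15 lies at chr4:156200819-156200938 on the minus strand, Ifit1 at chr19:34640769-34640870 on the plus strand, Ifit3 at chr19:34583329-34583528 on the plus strand and Ifit3b at chr19:34607757-34607956 on the plus strand. That of Oas1a lies at chr5:120907526-120907645 on the minus strand, Gbp7 at chr3:142530216-142530335 on the plus strand and Irf1 at chr11:53769894-53770013 on the plus strand.
Isg15: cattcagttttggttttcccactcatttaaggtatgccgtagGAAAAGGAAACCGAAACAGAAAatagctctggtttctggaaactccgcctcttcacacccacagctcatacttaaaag
Ifit1: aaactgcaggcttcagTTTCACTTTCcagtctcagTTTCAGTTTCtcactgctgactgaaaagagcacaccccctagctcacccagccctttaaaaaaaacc
Ifit3: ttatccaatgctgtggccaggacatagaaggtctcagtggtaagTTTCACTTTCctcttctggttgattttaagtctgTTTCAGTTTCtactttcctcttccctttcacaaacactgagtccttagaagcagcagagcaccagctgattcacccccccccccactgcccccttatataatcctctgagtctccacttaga
Ifit3b: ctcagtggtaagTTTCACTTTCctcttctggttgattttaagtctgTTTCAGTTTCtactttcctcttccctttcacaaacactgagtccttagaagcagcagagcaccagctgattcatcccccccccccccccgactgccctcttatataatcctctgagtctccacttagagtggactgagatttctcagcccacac
Oas1a: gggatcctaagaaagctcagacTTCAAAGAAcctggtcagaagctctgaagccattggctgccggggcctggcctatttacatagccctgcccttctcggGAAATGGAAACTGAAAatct
Gbp7: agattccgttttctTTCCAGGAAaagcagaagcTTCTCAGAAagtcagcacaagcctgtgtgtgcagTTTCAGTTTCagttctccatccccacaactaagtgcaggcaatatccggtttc
Irf1: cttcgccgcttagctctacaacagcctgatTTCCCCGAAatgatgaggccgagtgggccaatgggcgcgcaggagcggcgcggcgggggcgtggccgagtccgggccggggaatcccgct
Isg15 and Ifit1 show repeats of the core alone, Oas1a and Gbp7 hold both motifs, and Irf1 holds the interferon gamma element only. A match is a run of letters and not a measured binding site. The 11 genes of the table without the core in their window were Ifi35, Ifi44, Ifit2, Irf1, Irf7, Irf9, Lgals3bp, Oasl2, Parp12, Trim25 and Xaf1.

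Among the signalling and transcription factors, Irf7, which drives expression of the interferon alpha genes, had the largest difference. It was at 53.6, 35.7 and 37.5 CPM in Gas5 A, B and C, against 30.5, 15.9 and 28.3 CPM in GFP A, B and C. The groups did not overlap, and the log2 fold change was 0.76 (SE 0.24) with an edgeR adjusted p of 0.106. The DNA-binding subunit Irf9 was at 66.0, 52.7 and 57.7 CPM in Gas5, against 54.7, 37.6 and 49.5 CPM in GFP. GFP A lay above Gas5 B, and the log2 fold change was 0.31 (SE 0.13; edgeR adjusted p = 0.219). Its partner Stat2 was at 121, 98.9 and 99.8 CPM in Gas5, against 105, 60.8 and 115 CPM in GFP. Here GFP B stood far below the other libraries, and the difference was 0.19 (SE 0.20; edgeR adjusted p = 0.641), with a value of -0.04 without GFP B. Irf1, a transcription factor that interferon gamma induces, was at 13.6, 5.98 and 6.81 CPM in Gas5, against 7.79, 4.23 and 12.1 CPM in GFP. It was high in Gas5 A and GFP C, and its difference of 0.15 (SE 0.39; edgeR adjusted p = 0.866) became -0.32 with Gas5 A left out and -0.16 with GFP B left out. The 4 genes had a median log2 fold change of 0.25.

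The sensors of RNA and DNA had a median log2 fold change of 0.38 over 6 genes. Trim25, the ubiquitin ligase that assists the RNA helicase sensor Ddx58 (RIG-I), was at 40.8, 31.7 and 33.9 CPM in Gas5, against 31.1, 20.5 and 28.6 CPM in GFP. Its groups did not overlap but lay close together, and the log2 fold change was 0.40 (SE 0.15; edgeR adjusted p = 0.162). Zbp1, which recognises left-handed nucleic acid and can start necroptosis, was at 17.4, 11.2 and 10.3 CPM in Gas5, against 9.27, 5.89 and 10.9 CPM in GFP. GFP C exceeded Gas5 C, with a log2 fold change of 0.59 (SE 0.25; edgeR adjusted p = 0.214). Ddx58 itself averaged 34.3 ± 7.71 CPM in Gas5 and 26.6 ± 6.81 CPM in GFP, and the related helicase Ifih1 (MDA5) averaged 43.3 ± 8.81 CPM in Gas5 and 37.5 ± 12.8 CPM in GFP (SD, n = 3 each). The value of Ifih1 was 0.21 in all libraries and -0.04 without GFP B. Dhx58, the third helicase of this family, and Eif2ak2, the kinase PKR that halts translation on viral RNA, had log2 fold changes of 0.34 and 0.45. Their groups did not overlap, but the gap was small: the lowest Gas5 library of Dhx58 was at 7.06 CPM and its highest GFP library at 7.04 CPM. Another 28.1% of the Dhx58 span overlaps other genes and was not counted.

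Of the Ifit proteins, Ifit1 binds foreign RNA by its 5′ end and keeps it from the ribosome. The Ifit genes lie side by side on chromosome 19, and the 4 had closely similar log2 fold changes between 0.46 and 0.60. Ifit3 was at 65.8, 44.7 and 46.6 CPM in Gas5, against 44.3, 22.4 and 38.1 CPM in GFP. Ifit3b was at 37.4, 23.8 and 27.6 CPM in Gas5, against 25.4, 12.0 and 20.8 CPM in GFP. Gas5 B and C were close to GFP A for both genes, Ifit3b overlapping with it, and the log2 fold changes were 0.58 (SE 0.24) and 0.60 (SE 0.25), with edgeR adjusted p-values of 0.199 and 0.215. The pair are near-identical copies: 1663 of 1697 aligned bases of their longest coding transcripts are the same (98.0%, gaps left out), as are 259 of 260 aligned bases of the promoter windows (99.6%). How the authors' counting treated reads that match both is not given in the sources used here, so the split between the copies is uncertain. Ifit1 averaged 103 ± 18.8 CPM in Gas5 and 67.9 ± 29.4 CPM in GFP, and Ifit2 averaged 34.4 ± 6.70 CPM in Gas5 and 24.9 ± 8.32 CPM in GFP (SD, n = 3 each).

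Oas enzymes make oligoadenylates that activate RNase L, which degrades RNA. Oasl2, a member of the same family, lies at chr5:114896936-114912234 on the plus strand, and no base of its span is shared with another gene. It was at 207, 139 and 155 CPM in Gas5, against 125, 57.8 and 110 CPM in GFP. The lowest Gas5 library exceeded the highest GFP library, and the log2 fold change was 0.77 (SE 0.26; edgeR adjusted p = 0.127). Oas2 was at 18.9, 14.7 and 17.3 CPM in Gas5, against 14.4, 8.53 and 13.6 CPM in GFP. Its groups were separated by the gap between Gas5 B and GFP A, and the log2 fold change was 0.47 (SE 0.18; edgeR adjusted p = 0.176). Oas1a and Oas3 each had a log2 fold change of 0.59. Their groups overlapped, as Oas1a was at 9.09 CPM in Gas5 B and 9.13 CPM in GFP C, and Oas3 was at 6.13 CPM in Gas5 B and 8.06 CPM in GFP C.

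Isg15 is a ubiquitin-like protein that is attached to other proteins during the interferon response, and Usp18 is the protease that removes it and that also damps receptor signalling. Isg15 was at 38.6, 29.9 and 34.3 CPM in Gas5, against 32.0, 15.7 and 27.7 CPM in GFP. GFP A lay between Gas5 B and Gas5 C, and the log2 fold change was 0.44 (SE 0.22; edgeR adjusted p = 0.290). Usp18 was at 13.0, 11.2 and 10.7 CPM in Gas5, against 9.81, 4.05 and 9.04 CPM in GFP. The groups did not overlap, and the log2 fold change was 0.60 (SE 0.27; edgeR adjusted p = 0.236). Of the Usp18 span, 62.8% is shared with the predicted gene Gm44148 on the other strand, so Usp18 was measured on the remainder.

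**Figure D2:**
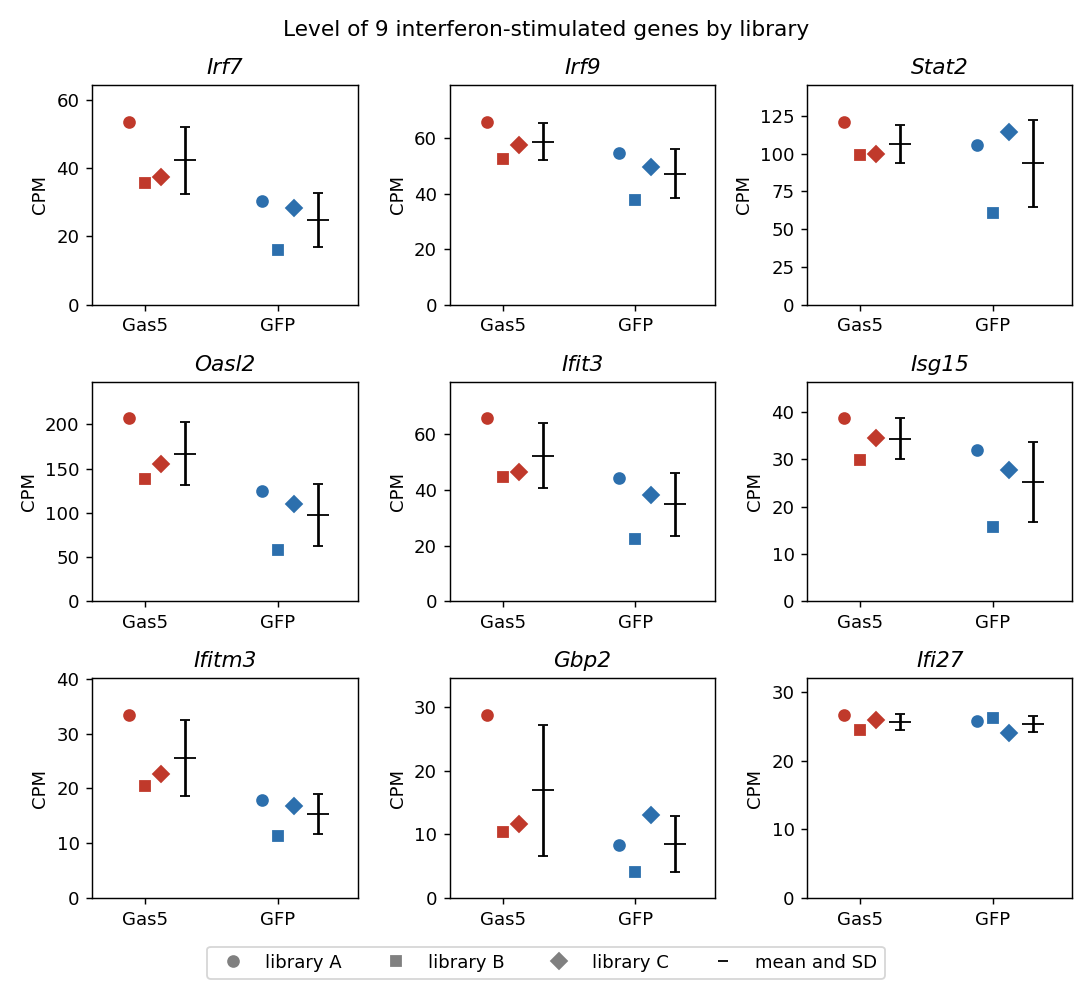
CPM of 9 interferon-stimulated genes in each library, with the mean and SD of each group beside the points (n = 3 per group). Irf7, Oasl2, Ifit3 and Ifitm3 separate the groups with Gas5 A highest and GFP B lowest, Gbp2 stands high in Gas5 A alone, Stat2 stands low in GFP B alone, and Ifi27 is level at 24.1 to 26.7 CPM.

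The interferon-inducible GTPases assemble on viral capsids or on the vacuoles of microbes. Gbp2 was at 28.8, 10.4 and 11.7 CPM in Gas5, against 8.29, 4.15 and 13.0 CPM in GFP. The log2 fold change of 1.01 (SE 0.46; edgeR adjusted p = 0.247) was the largest of the 40 genes, yet GFP C lay above Gas5 B and Gas5 C, and without Gas5 A the value was 0.39. Gbp7 was at 49.1, 27.4 and 33.0 CPM in Gas5, against 29.9, 12.7 and 29.4 CPM in GFP. GFP A and GFP C lay between Gas5 B and Gas5 C, and the log2 fold change was 0.60 (SE 0.31; edgeR adjusted p = 0.311). Iigp1, which damages vacuoles around intracellular parasites, was at 48.0, 18.3 and 21.8 CPM in Gas5, against 21.4, 5.94 and 29.6 CPM in GFP. Its value was 0.64 in all libraries (SE 0.52; edgeR adjusted p = 0.525) and 0.08 without Gas5 A. Functional Mx proteins, which are dynamin-like, trap viral nucleocapsids. C57BL6 mice are known to lack functional forms of both, and the GENCODE annotation lists Mx2 as a polymorphic pseudogene. Mx1 had a log2 fold change of 0.53, and Mx2 averaged 71.0 ± 6.34 CPM in Gas5 and 55.0 ± 19.0 CPM in GFP (SD, n = 3 each), a value of 0.37. Gbp3 and Irgm1, a regulator of the other immunity-related GTPases, had log2 fold changes of 0.19 and 0.31. Both were at -0.03 once Gas5 A was left out, and Gbp3 was at -0.07 with GFP B left out. None of the 7 tested GTPases separated the groups, compared with 13.8% of all tested genes that did so with Gas5 above GFP.

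The membrane and other antiviral effectors had the highest median of the roles, 0.71 over 5 genes. Ifitm3, which stops viruses from fusing with endosomal membranes, lies at chr7:141009586-141010770 on the minus strand and shares no base with another gene. It was at 33.4, 20.5 and 22.6 CPM in Gas5, against 18.0, 11.3 and 16.8 CPM in GFP. The groups did not overlap, and the log2 fold change of 0.73 (SE 0.21) had the smallest p of the 40 genes (edgeR adjusted p = 0.0904). Rsad2 (viperin), which makes a chain-terminating nucleotide, was at 22.8, 13.3 and 13.1 CPM in Gas5, against 11.6, 5.55 and 11.4 CPM in GFP. Again the groups did not overlap, and the log2 fold change was 0.79 (SE 0.30; edgeR adjusted p = 0.166). Bst2 (tetherin), which holds budding virions at the cell surface, averaged 20.9 ± 6.23 CPM in Gas5 and 12.8 ± 6.10 CPM in GFP (SD, n = 3 each), a log2 fold change of 0.71. Trim30a, a tripartite motif protein, had 0.38 and Rtp4, a receptor transport protein, 0.39. Of the Rtp4 span, 42.4% is shared with Masp1 and Gm45338.

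Parp9, Parp12 and Parp14 belong to the ADP-ribosyltransferase family. Parp9 was at 31.7, 21.7 and 23.9 CPM in Gas5, against 23.5, 13.8 and 23.8 CPM in GFP. Parp14 was at 59.5, 38.7 and 40.7 CPM in Gas5, against 39.5, 25.7 and 46.4 CPM in GFP. Apart from Gas5 A and GFP B the libraries of both genes were intermixed, with log2 fold changes of 0.34 (SE 0.21) and 0.32 (SE 0.22) and edgeR adjusted p-values of 0.396 and 0.451. Parp12 had a value of 0.28. The remaining induced genes held the smallest and some of the larger differences. Lgals3bp, a secreted galectin-binding glycoprotein, was at 112, 93.5 and 97.1 CPM in Gas5, against 90.4, 60.3 and 80.5 CPM in GFP. The groups did not overlap, and the log2 fold change was 0.39 (SE 0.14; edgeR adjusted p = 0.141). Ifi44 was at 30.6, 15.9 and 16.6 CPM in Gas5, against 14.1, 7.03 and 16.1 CPM in GFP. GFP C lay between Gas5 B and Gas5 C, and the log2 fold change was 0.76 (SE 0.33; edgeR adjusted p = 0.219). Ifi27 was at 26.7, 24.4 and 25.9 CPM in Gas5, against 25.8, 26.3 and 24.1 CPM in GFP. It differed by 0.01 (SE 0.06; edgeR adjusted p = 0.914), and was the only one of the 40 genes not lowest in GFP B. Xaf1, which binds the apoptosis inhibitor XIAP, and Ifi35 had log2 fold changes of 0.23 and 0.47.

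The groups of 11 genes did not overlap, all with Gas5 above GFP, compared with 13.8% of all tested genes: Dhx58, Eif2ak2, Ifit3, Ifitm3, Irf7, Lgals3bp, Oas2, Oasl2, Rsad2, Trim25 and Usp18. In contrast, GFP C lay above both Gas5 B and Gas5 C in 10 genes, Gbp2, Gbp3, Ifih1, Iigp1, Irf1, Irgm1, Parp12, Parp14, Stat2 and Xaf1, compared with 34.7% of all tested genes. With Gas5 A left out, 36 of 40 genes were positive and the median was 0.29, and Irf1, Gbp3, Irgm1 and Ifi27 were negative. Without GFP B there were also 36, with a median of 0.24, and Stat2, Irf1, Ifih1 and Gbp3 were negative. No gene of the 40 was called by edgeR's quasi-likelihood test with any library left out. Without Gas5 A, B or C the fit called 112 of 17688, 251 of 17720 or 194 of 17918 genes higher. Without GFP A, B or C it called 236 of 17807, 4 of 17909 or 6 of 17873 higher. With so few calls without GFP B or GFP C, the 0 of 40 there is not particular to these genes.

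**Figure D3:**
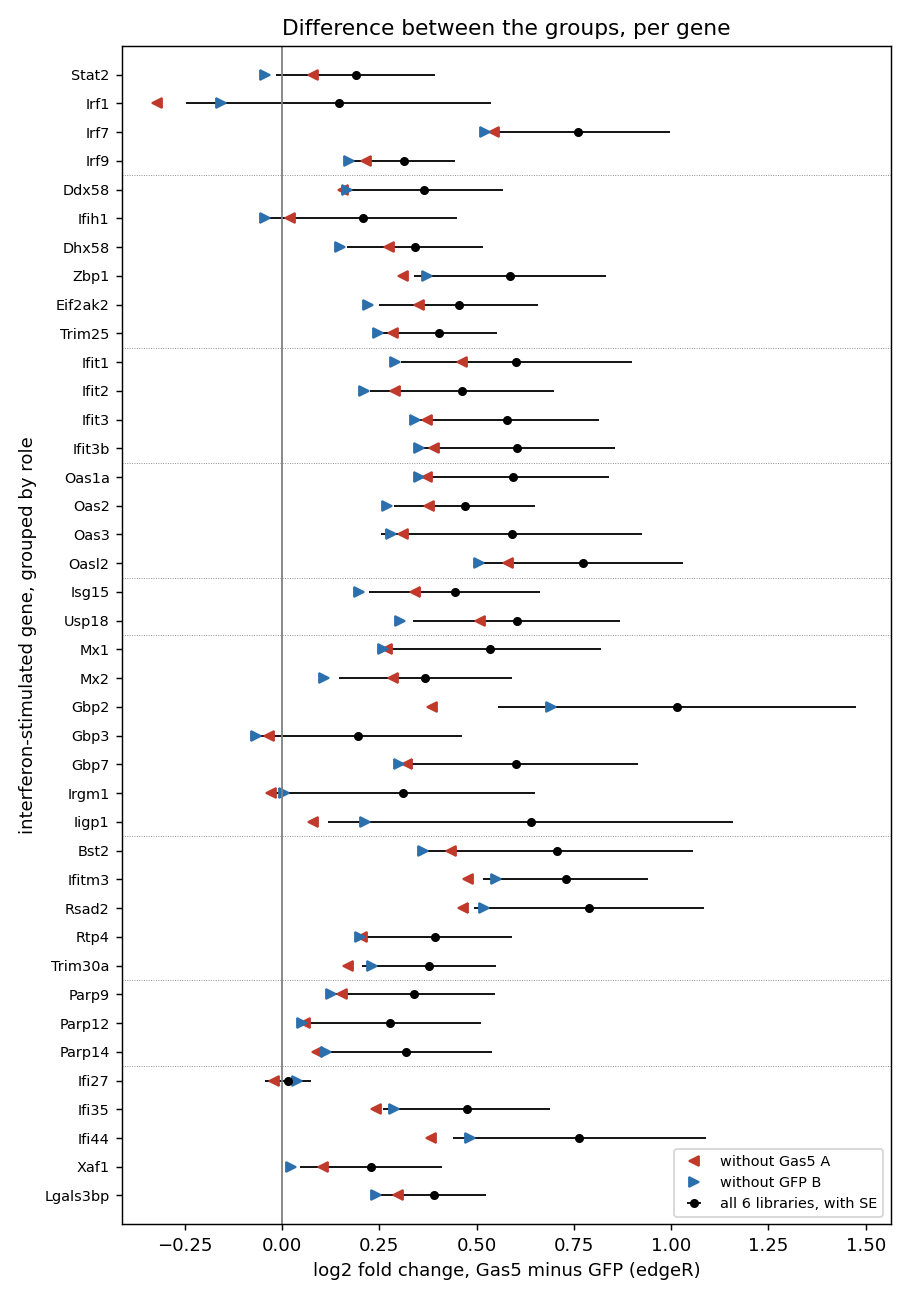
Log2 fold change of Gas5 minus GFP for the 40 tested genes, grouped by role. Black points with bars are the values and standard errors in all 6 libraries, from 0.01 for Ifi27 to 1.01 for Gbp2, and the triangles, without Gas5 A or without GFP B, lie to the left of the points for all genes except Ifi27 without GFP B, the medians being 0.29 and 0.24.

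The inducing cytokines were at the limit of detection. The 21 interferon genes listed had 4, 2 and 6 counts in Gas5 A, B and C, against 1, 1 and 2 counts in GFP A, B and C, all genes added together. Of them, 13 had 0 counts in every library, and the highest value was 2 counts, for Ifng, the gene of interferon gamma, in Gas5 A and Gas5 C. A count of 0 allows a level of up to 0.0535 to 0.0927 CPM per library, from 3 counts of its total, which covers counting error only. None was tested. The spans of Ifnk, Ifnl2 and Ifnl3 lie wholly within other genes, so that reads from them were not counted. Of the Ifng span, 56.2% is shared with AC153498.1, so its counts and detection limit refer to the remainder.

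Receptors and Jak-Stat components lay closer to the median of all genes. Of 15 tested genes, 12 were positive and the median was 0.09, and 0 were called by edgeR's quasi-likelihood test. For 2 its unadjusted p was under 0.05, both higher in Gas5, compared with 10.2% of all tested genes on that side. The 2 were Socs3 and Ptpn6, which both restrain the pathway. Socs3, which blocks Jak kinases, was at 5.75, 1.96 and 1.81 CPM in Gas5, against 1.15, 1.04 and 1.35 CPM in GFP, with Gas5 A far above the rest and a log2 fold change of 1.44 (SE 0.45; edgeR adjusted p = 0.106), which was 0.68 without Gas5 A. Ptpn6, the phosphatase SHP-1 of blood cells and microglia, was at 5.87, 4.30 and 4.65 CPM in Gas5, against 3.35, 2.59 and 4.12 CPM in GFP. Its log2 fold change was 0.57 (SE 0.19; edgeR adjusted p = 0.122).

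Sensing components upstream of interferon had a median of 0.28 (log2) over 13 tested genes, of which 12 were positive and 0 were called. In edgeR's quasi-likelihood test 4 had an unadjusted p under 0.05, all higher in Gas5, compared with 10.2% of all tested genes on that side. Tlr7, the endosomal receptor for RNA, was at 11.6, 10.3 and 11.6 CPM in Gas5, against 9.30, 7.78 and 9.16 CPM in GFP. The groups did not overlap, and the difference was 0.35 (SE 0.09; edgeR adjusted p = 0.0679). Mavs, the mitochondrial adaptor of Ddx58 and Ifih1, was at 5.40, 4.61 and 4.52 CPM in Gas5, against 4.12, 3.84 and 3.87 CPM in GFP, a log2 fold change of 0.29 (SE 0.11; edgeR adjusted p = 0.175).

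A wider list held 66 other interferon-induced genes. Of 55 tested, 54 were positive and the median was 0.40, the exception being Ifitm1 at -0.32. None was called by edgeR's quasi-likelihood test, where 1.48% of all tested genes were called higher. Its unadjusted p was under 0.05 for 17, all higher in Gas5, compared with 10.2% of all tested genes on that side. The groups separated with Gas5 above GFP in 18, compared with 13.8%. Gas5 A was the highest library in 53 and GFP B the lowest in 51, compared with 24.8% and 18.0% of all tested genes. Ifi205, of a family of DNA-binding proteins, had the smallest p of the list, with 41, 11 and 13 raw counts in Gas5, against 5, 1 and 4 in GFP. Its log2 fold change was 2.66 with an edgeR adjusted p of 0.0630, and it was 1.85 without Gas5 A. Tor3a, an ATPase of the torsin family, followed with 0.38 (edgeR adjusted p = 0.0894).

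Markers of cells that can express these genes moved with them in part. The summed microglial level was 361, 329 and 344 CPM in Gas5, against 308, 280 and 317 CPM in GFP, so that the groups did not overlap and GFP B was again lowest. The log2 fold change was positive for all 10 tested microglial markers, the median being 0.31, and 0 were called. In edgeR's quasi-likelihood test 7 had an unadjusted p under 0.05, all higher in Gas5, compared with 10.2% of all tested genes on that side. The groups separated with Gas5 above GFP in 8, compared with 13.8%. The smallest edgeR adjusted p of these markers was 0.0502, for C1qa. Of the 12 listed, P2ry12 and Itgam were at 0 in every library, and their spans overlap those of other genes wholly or nearly so. The highest library exceeded the lowest by 1.29 times in this sum, compared with 2.58 times for the interferon-stimulated genes. Border macrophage and monocyte markers summed to 49.6, 29.6 and 42.7 CPM in Gas5, against 32.1, 28.6 and 24.2 CPM in GFP, with a positive log2 fold change in 6 of 7 and 0 called. Their median log2 fold change was 1.003. EdgeR's unadjusted p was under 0.05 for 3, all higher in Gas5, compared with 10.2% of all tested genes on that side. Gas5 A was the highest library in 5 and GFP B the lowest in 4, compared with 24.8% and 18.0%. Ly6c2 separated the groups with Gas5 above GFP (log2 fold change 2.56), and Mrc1 with GFP above Gas5 (-0.39). The largest part of the sum in every library was Cd163, with a log2 fold change of 0.39. The part of either cell type in the result was not tested. Of 7 tested astrocyte markers, 5 had a positive log2 fold change, the median being 0.28. Gas5 A was the highest library in 5 of them, compared with 24.8% of all tested genes. Aqp4 passed the test with a higher level in Gas5, compared with 1.48% of all tested genes called higher. In edgeR's quasi-likelihood test 4 had an unadjusted p under 0.05, all higher, compared with 10.2% of all tested genes on that side. The summed astrocyte level was 2670, 2685 and 3209 CPM in Gas5, against 3260, 3073 and 3042 CPM in GFP, a sum that consists mostly of Slc1a2, which had a log2 fold change of -0.21. The part of astrocytes in the result was not tested either. The summed endothelial and oligodendrocyte markers were lowest in Gas5 A. In each list 1 marker passed the test, Flt1 and Aspa, both lower in Gas5, compared with 3.96% of all tested genes called lower. All 7 oligodendrocyte markers had a negative log2 fold change, the median being -0.32, as did 6 of 9 endothelial and pericyte markers, with a median of -0.04. EdgeR's unadjusted p was under 0.05 for 5 and 2 of them, all lower in Gas5, compared with 11.2% of all tested genes on that side. Of the 3, 2, 3 and 5 tested markers of T and NK cells, neutrophils, ependymal cells and meningeal fibroblasts, Rsph1 of ependymal cells passed, with a higher level in Gas5. Over all tested genes, 1.48% were called higher. The meningeal fibroblast markers summed to 31.4, 20.8 and 21.8 CPM in Gas5, against 17.3, 17.8 and 21.5 CPM in GFP, with Gas5 A highest. Ly6g of neutrophils was at 0 in every library, and so was Gfap of astrocytes, whose span lies wholly within that of Gm26668, so that its reads were not counted.

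The cortical markers described above were lowest in Gas5 A, and their mean log2 CPM was 2.19, 2.87 and 3.04 in Gas5, against 3.97, 4.47 and 4.49 in GFP. With that mean as a covariate in the same edgeR fit, all 40 genes had a negative log2 fold change, with a median of -0.58, and 0 of the 17563 tested genes were called in either direction. The covariate separates the groups completely, so that the level of the cortical markers and the delivered vector cannot be told apart.

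**Figure D4:**
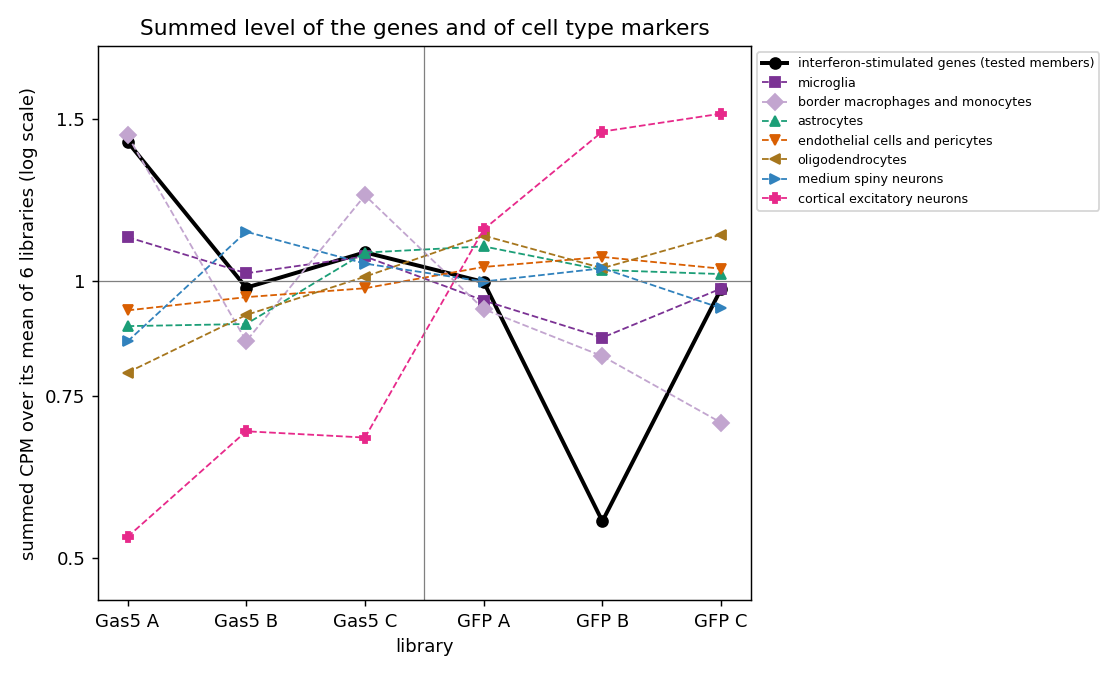
Summed CPM of the tested interferon-stimulated genes and of 7 lists of cell type markers in each library, divided by the mean of the 6 libraries, on a log scale. The interferon-stimulated genes (black) are highest in Gas5 A and lowest in GFP B, the microglial markers follow over a narrower range, and the cortical markers are lower in all 3 Gas5 libraries.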

How the data were processed

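The authors deposited raw counts, 1 whole number per gene and library, without normalization, per the file headers. Tools named in the submitters' processing notes are STAR 2.7.0, featureCounts 1.5.0-p3, Trim Galore 0.4.4, bcl2fastq 1.8.4 and edgeR 3.20.9, with build GRCm38.p6. Annotation release, strand and multimapping settings: not given in the sources used here. Listed lengths equal each gene's whole span, so intronic reads count, and genes wholly inside others, such as P2ry12, Myd88 and Irf8, had 0 counts, so reads in overlaps are missing.

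Tests used edgeR 4.0.16 in R 4.3.3 (default expression filter, TMM, quasi-likelihood F-test, 2-sided, Benjamini-Hochberg over 17563 genes, threshold 0.05). SE is the absolute log2 fold change over the square root of F. CPM values are TMM-scaled, and logarithms add 0.5. They compare libraries, not genes, since spans differ. The common biological coefficient of variation was 8.28%. The tests were also run on simulated counts, with the same dispersion for every gene and no library standing apart. That simulation does not cover libraries that stand apart as Gas5 A and GFP B do here. Full values are given for the 2 genes of smallest p per role and for Stat2, Irf9, Irf7 and Isg15, and Irf1, Iigp1 and Ifi27 were added after their values were seen. The genes and every list were chosen with earlier results of these data known. Alternatives used limma 3.58.1 and DESeq2 1.42.0. Replicates differed by more than sampling noise (chi-square per degree of freedom 4.82 to 23.3).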

Additional observations from a re-analysis of the deposited data

How the results depend on the processing

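The count of interferon-stimulated genes called higher was 0 with RLE or upper quartile scaling, a filter of 1 CPM in 3 libraries, limma-voom, robust dispersion, the covariate, each library left out, and with the genes sharing over 10% of their span left out. Of all 17563 tested genes, RLE scaling called 255 higher, upper quartile scaling 317, limma-voom 216, robust dispersion 249 and the covariate 0. The filter of 1 CPM called 260 of 14626 genes higher. The fits with 1 library left out called between 4 of 17909 and 251 of 17720. For the interferon-stimulated genes the count was 7 with no expression filter (Ifit3, Ifitm3, Irf7, Lgals3bp, Oasl2, Rsad2 and Trim25), 1 with DESeq2, 3 with the edgeR exact test and 1 at a threshold of 0.1. The causes of these differences were not tested. No gene was called lower under any alternative. The median log2 fold change was 0.45 with RLE, 0.48 with upper quartile scaling, and 0.24 to 0.62 with 1 library left out.

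The labels do not say whether the replicate letters mark a shared day or batch. The deviations of same-letter libraries from their group means correlated at 0.16 for A, 0.18 for B and -0.09 for C. Gas5 A and Gas5 B each correlated best with the GFP library of their own letter, whereas Gas5 C correlated best with GFP A (0.06). The summed level of the 40 genes fell in the order A, C, B in both groups. Whether the letters pair the samples cannot be told from these values, and the main fit did not pair them. With the letter as a block, 15 genes were called higher (510 of all 17563 genes) and the median was 0.49.

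The cortical marker covariate turned the median to -0.58 and reversed every gene: Stat2 -0.45, Irf1 -1.39, Irf7 -0.43, Irf9 -0.32, Ddx58 -0.69, Ifih1 -0.68, Dhx58 -0.24, Zbp1 -0.60, Eif2ak2 -0.31, Trim25 -0.33, Ifit1 -0.47, Ifit2 -0.44, Ifit3 -0.66, Ifit3b -0.69, Oas1a -0.47, Oas2 -0.16, Oas3 -0.53, Oasl2 -0.40, Isg15 -0.39, Usp18 -0.29, Mx1 -0.77, Mx2 -0.25, Gbp2 -1.12, Gbp3 -0.88, Gbp7 -0.80, Irgm1 -1.30, Iigp1 -1.46, Bst2 -0.84, Ifitm3 -0.48, Rsad2 -0.79, Rtp4 -0.69, Trim30a -0.57, Parp9 -0.60, Parp12 -0.68, Parp14 -0.63, Ifi27 -0.12, Ifi35 -0.70, Ifi44 -0.84, Xaf1 -0.50 and Lgals3bp -0.27. Socs3 was at -1.27, Mavs at -0.15, Ifi205 at -0.51 and Tor3a at -0.0078. Gas5 kept its direction at 0.37 and lost its call (edgeR adjusted p = 0.998). With 1 library left out, values ran from -0.044 to 0.36 for Stat2, -0.32 to 0.53 for Irf1, -0.045 to 0.41 for Ifih1, -0.068 to 0.37 for Gbp3, -0.027 to 0.53 for Irgm1, -0.021 to 0.048 for Ifi27 and 0.33 to 0.42 for Gas5. The libraries held between 32359052 and 56081575 counts, and whether depth limits the interferon genes that share no span was not tested. Other genes overlap 99.2% of the span of Igtp and 100.0% of those of Ifnk, Ifnl2 and Ifnl3. They also overlap 56.2% of the Ifng span, and reads in such overlaps are not in these counts.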
